A study of Mus musculus with 30 samples.

Results

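A set of 9 matrix proteoglycan genes was followed in the descending thoracic aorta of mice with vascular Ehlers-Danlos syndrome (VEDS) and of control mice. The members are *Dcn*, *Bgn*, *Lum*, *Fmod*, *Ogn*, *Prelp* and *Aspn*, of the small leucine-rich repeat family, and the large aggregating proteoglycans *Vcan* and *Acan*. They were taken by gene symbol, and all 9 of 9 were found among the 26253 genes listed in each library. All 9 passed the low-count filter in each of the 11 comparisons below.

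Bulk RNA-seq was done on 30 aortas of male C57BL/6J mice in 6 groups. VEDS mice carried 1 *Col3a1* G938D allele (*Col3a1* G938D/+), a missense change in the chain of type III collagen, and controls were *Col3a1* +/+. In 3 VEDS mice hydralazine was combined with bicalutamide (HB) and in 3 with spironolactone (HS). A further 6 VEDS mice had hydralazine alone, 6 VEDS mice were untreated, 6 controls had hydralazine and 6 controls were untreated. Hydralazine, a vasodilator, was given in the drinking water from birth at 32 mg/kg/day in HB, HS and both hydralazine groups. Bicalutamide, an androgen receptor antagonist, was given in chow at 50 mg/kg/day from postnatal day 21. Spironolactone, which antagonises the androgen and the mineralocorticoid receptor, was given in chow at 100 mg/kg/day from the same day. By the treatment notes in the labels, HB and HS mice were harvested at day 60 and hydralazine-treated mice at day 30 or day 60, and the study describes untreated mice at both ages. The labels do not give the age of any one library in the groups of 6. In a comparison of HB or HS with a group of 6, drug and age therefore cannot be told apart. According to the labels the aortas were perfused and the adventitia was pulled off with forceps. As the mutation is a missense change, the level of *Col3a1* does not check the genotype labels.

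Proteoglycans are core proteins that carry glycosaminoglycan chains. Decorin and biglycan carry chondroitin or dermatan sulfate and bind collagen fibrils and transforming growth factor beta. Lumican, fibromodulin, mimecan (*Ogn*) and prolargin (*Prelp*) are collagen-binding relatives, several of which can carry keratan sulfate, and asporin is a decorin relative with an aspartate-rich start. Versican and aggrecan bind hyaluronan and hold water between the elastic layers of the arterial media, where they are cleaved by ADAMTS proteases. Loss of biglycan is linked to aortic dissection and rupture in mice and to a human aortic aneurysm syndrome.

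The 30 libraries held 5517510 to 8293289 assigned counts. Smooth muscle markers (5 of 5 detected) summed to 15272 to 28908 CPM (counts scaled to library size), against 701 to 1120 CPM for 5 endothelial and 1414 to 2412 CPM for 8 fibroblast markers. Chondrocyte markers, of interest because aggrecan is the main proteoglycan of cartilage, summed to only 3.84 to 11.9 CPM over 9 genes. Hepatocyte markers ranged from 79.2 to 14165 CPM and adipocyte markers from 82.3 to 1130 CPM, and their part in the results below was not tested. Earlier results of these data set 3 libraries apart, namely replicate 2 of HB, replicate 3 of HS and replicate 5 of the hydralazine-treated controls. Cardiomyocyte markers summed to 742 CPM in that HB library and 756 CPM in that control library, against 122 to 290 CPM in the 28 others. In each group of 6, 3 libraries had *Col3a1* at 13568 to 17691 CPM, while the other 18 libraries of the series, HB and HS included, lay between 4316 and 7710 CPM. Since all HB and HS libraries are in this lower set, their differences from a group of 6 are also given with the *Col3a1* set as a term in the edgeR fit, an alternative added after the data had been seen. The study lists *Col3a1* among transcripts that were lower at day 60 than at day 30. Whether the sets follow age was not tested. In bulk tissue, fewer cells of a type and less RNA per cell cannot be told apart.

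Levels were compared between genes as TPM (transcripts scaled to library total), which account for transcript length. *Dcn* led with a median of 406 TPM and a range of 316 to 519 TPM over 30 libraries. *Bgn* followed at a median of 382 TPM (266 to 532.7) and *Ogn* at 322 TPM (225 to 408). These abundant genes were not separated from each other, since *Dcn* exceeded *Bgn* in 18 of 30 libraries and *Bgn* exceeded *Ogn* in 24. Together they made up most of the proteoglycan transcripts, with 32.3%, 31.1% and 24.8% of the summed TPM of the 9 genes. A clear step followed, as the lowest *Ogn* value lay above the highest *Lum* value of 85.9 TPM.

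*Lum* had a median of 46.7 TPM (26.8 to 85.9), *Prelp* 37.6 TPM (16.5 to 57.6) and *Aspn* 27.6 TPM (16.2 to 38.6). Their ranges overlapped, with *Lum* above *Prelp* in 18 of 30 libraries and *Prelp* above *Aspn* in 24. *Vcan* had a median of 18.4 TPM (11.6 to 26.7) and *Fmod* 11.6 TPM (7.81 to 17.6). Although their ranges overlapped, *Aspn* exceeded *Vcan* and *Vcan* exceeded *Fmod* in all 30 libraries. *Acan* was lowest in each library at a median of 3.43 TPM (1.73 to 5.69), with no overlap with *Fmod*. The order of the 9 genes was the same as CPM per kilobase of effective length. Between 68.2% and 76.8% of the TPM of a library went to 7SL and 7SK RNAs, which lowers the TPM of other genes in proportion within a library.

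**Figure D1:**
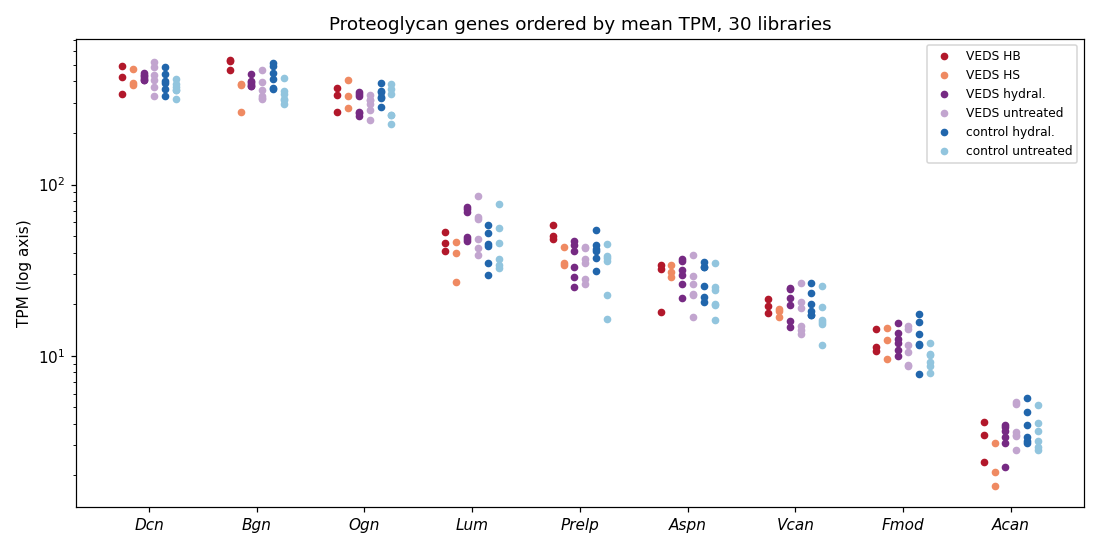
TPM (log axis) of the 9 proteoglycan genes, ordered by mean, with 1 point per library and colours for the 6 groups. *Dcn*, *Bgn* and *Ogn* lie between 225 and 532.7 TPM, a step above the other genes, and *Acan* lies at or below 5.69 TPM in each library.

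The 9 genes differed in how much they varied among libraries of the same group. The within-group SD of log2 CPM was 0.14 for *Bgn* and 0.14 for *Dcn*, which put them at percentiles 21.4 and 22.1 of the 13534 genes with a mean of at least 1 CPM. *Prelp* varied most, with an SD of 0.40 (percentile 79.9) and a range of 90.6 to 291 CPM. *Acan* (SD 0.31), *Lum* (0.30), *Ogn* (0.27), *Aspn* (0.27), *Vcan* (0.26) and *Fmod* (0.25) lay between. The plot of CPM by group shows this spread as split clouds for *Prelp*, *Ogn* and *Lum* within the groups of 6.

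**Figure D2:**
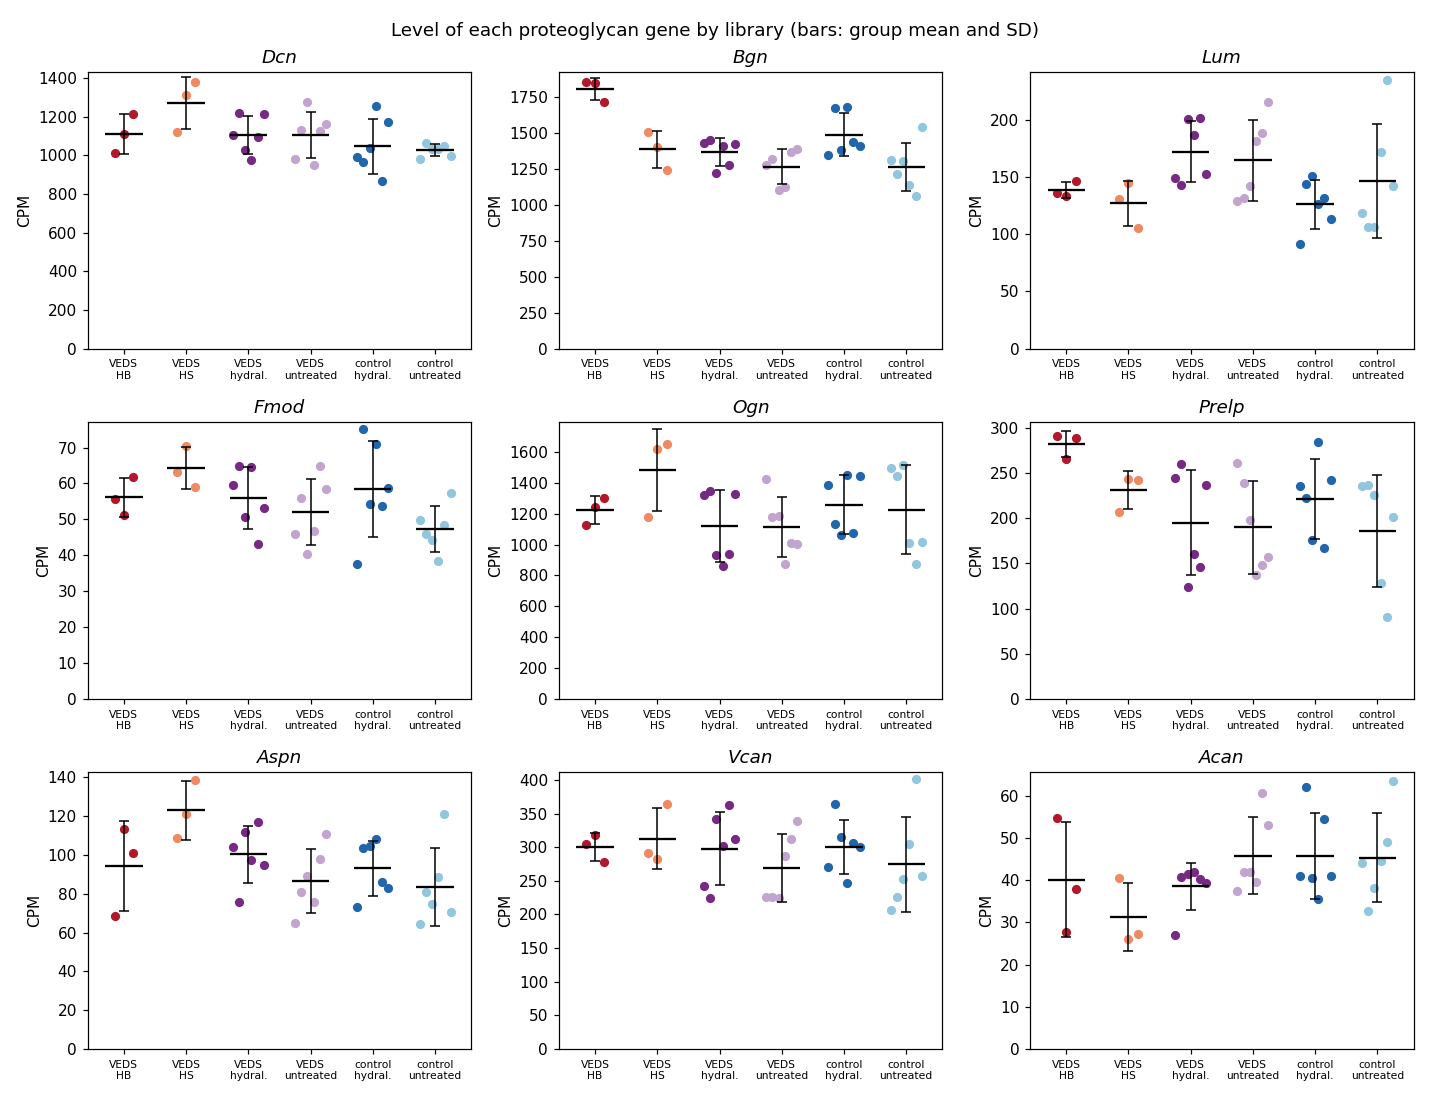
CPM of each proteoglycan gene by library (points) in HB, HS, hydralazine-treated and untreated VEDS mice and hydralazine-treated and untreated controls, with group mean and SD. The 3 HB libraries, at 1717 to 1857 CPM, lie above the 27 others for *Bgn*.

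The first question was whether adding an antagonist to hydralazine altered these genes. *Bgn* stood out in HB aortas. It was at 1857, 1846 and 1717 CPM in the 3 HB libraries, against a lowest, median and highest of 1106, 1300 and 1390 CPM in the 6 untreated VEDS libraries. No HB library overlapped the untreated group, and the lowest HB value also exceeded the highest value of the 27 other libraries, 1684 CPM in a hydralazine-treated control. The group means were 1807 ± 78.1 CPM in HB (SD, n = 3) and 1266 ± 122 CPM in untreated VEDS mice (SD, n = 6). The log2 fold change was 0.51 ± 0.09 (SE), a fold of 1.42 with a 95% interval of 1.23 to 1.64. Over all 13204 genes tested its adjusted p was 0.0523 (edgeR quasi-likelihood test, Benjamini-Hochberg), just outside the threshold of 0.05, and *Bgn* had rank 63 by p where 54 genes were called.

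That call turned on the settings. DESeq2 gave *Bgn* an adjusted p of 5.14e-06, 1 fit of all 30 libraries 0.0165, a fit with 1 surrogate variable 0.0405, and edgeR without untreated VEDS replicate 1 gave 0.0263. Without HB replicate 2 the value was 0.124, and leaving out 1 library at a time gave 0.0263 to 0.236 by edgeR. With the *Col3a1* set as a term it was 0.0842, at a log2 fold change of 0.54 ± 0.10 (SE). In none of these did the log2 fold change leave the range of 0.46 to 0.55.

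*Bgn* was also higher in HB than in hydralazine-treated VEDS aortas, which had a lowest, median and highest of 1223, 1418 and 1452 CPM. The groups did not overlap. The log2 fold change was 0.39 ± 0.08 (SE; fold 1.31, 95% interval 1.16 to 1.48), with an adjusted p of 0.0945 by edgeR and 0.000163 by DESeq2. With the *Col3a1* set as a term it was 0.33 ± 0.07 (SE; adjusted p = 0.0543). Leaving out 1 library at a time gave edgeR adjusted p-values from 0.0692 to 0.323. This comparison uses the same 3 HB libraries as the one above, so it is not a second sample of HB. Smooth muscle markers summed to 24571 to 27188 CPM in HB, against 16617 to 28908 CPM in untreated VEDS mice, and hepatocyte markers to 567 to 763 CPM, against 79.2 to 14165 CPM. Adipocyte markers (5 of 5 detected) were lower in HB without overlap, at 99.2 to 328 CPM, against 358 to 1130 CPM in untreated VEDS mice, while hydralazine-treated VEDS mice spanned 118 to 687 CPM. Cardiomyocyte markers (5 of 5 detected) summed to 254 to 742 CPM in HB, against 143 to 249.7 CPM in hydralazine-treated and 137 to 258 CPM in untreated VEDS mice. The part of these cell types in the *Bgn* difference was not tested.

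In HS aortas *Bgn* was at 1507, 1404 and 1246 CPM in the 3 HS libraries, against 1106, 1300 and 1390 CPM as the lowest, median and highest in untreated VEDS mice, and these groups overlapped. The log2 fold change of HS over untreated was 0.12 ± 0.11 (SE; 95% interval −0.12 to 0.36). Set against each other at the same age, the HS libraries lay below the HB libraries with no overlap, at a log2 fold change of −0.38 ± 0.10 (SE) and a 95% interval of −0.61 to −0.14. Over 12800 genes the adjusted p was 0.678, so this difference between antagonists did not pass the test, and DESeq2 gave no call for it. The edgeR and DESeq2 alternatives other than leaving out 1 library gave adjusted p-values from 0.0532 to 0.72. Smooth muscle markers were also lower in HS without overlap, at 20758 to 22336 CPM against 24571 to 27188 CPM in HB. Fibroblast markers were at 1850 to 2057 CPM in HS and 1767 to 1867 CPM in HB. The part of these cell types in the differences between HS and HB was not tested.

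*Prelp*, a basement membrane and collagen anchor, followed a like pattern with a wider spread. It was at 291, 265 and 289 CPM in HB, against a lowest, median and highest of 137, 177 and 261 CPM in untreated VEDS mice. The groups were just separate, with the lowest HB library 265 and the highest untreated library 261 CPM. The log2 fold change was 0.56 ± 0.20 (SE; fold 1.48, 95% interval 1.09 to 2.00; edgeR adjusted p = 0.190). Over hydralazine-treated VEDS mice, whose lowest, median and highest were 124, 199 and 260 CPM, it was 0.52 ± 0.22 (SE; adjusted p = 0.289). With 1 surrogate variable in the model the log2 fold change over hydralazine was only 0.08. The 3 untreated libraries of the lower *Col3a1* set were at 261, 239 and 198 CPM and the 3 of the higher set at 137, 148 and 157 CPM. With the set as a term, *Prelp* in HB stood at 0.27 ± 0.10 over untreated (SE; adjusted p = 0.301) and 0.19 ± 0.09 over hydralazine-treated VEDS mice (SE; adjusted p = 0.503). In HS, *Prelp* was at 207, 244 and 242 CPM, below all HB libraries, and HS over HB gave −0.28 ± 0.10 (SE; adjusted p = 0.686). Without HB replicate 2 the log2 fold change of *Prelp* was 0.60 over untreated and 0.57 over hydralazine-treated VEDS mice.

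For *Bgn* and *Prelp*, the genes whose HB libraries stood clear of both other VEDS groups of 6, the promoter windows are shown as a description. Bicalutamide blocks a receptor that binds DNA, but binding of that receptor at these genes was not tested. The windows run from 250 bases before to 50 bases after the gene start, are credited to RefSeq and use GRCm38.p6, whereas the expression values were made on mm39. Letters in capitals mark any match on either strand to the TATA box TATAAA, the GC box GGGCGG, the AP-1 site TGACTCA or the steroid receptor half-site AGAACA. *Bgn* lies at chrX:73483351-73483650 (plus strand) and *Prelp* at chr1:133921352-133921651 (minus strand).
Bgn: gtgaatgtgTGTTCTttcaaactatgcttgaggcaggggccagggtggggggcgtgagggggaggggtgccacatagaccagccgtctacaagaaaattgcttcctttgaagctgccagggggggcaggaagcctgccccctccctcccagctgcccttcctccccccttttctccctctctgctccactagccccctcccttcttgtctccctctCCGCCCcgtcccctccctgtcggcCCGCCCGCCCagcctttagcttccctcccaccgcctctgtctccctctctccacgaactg
Prelp: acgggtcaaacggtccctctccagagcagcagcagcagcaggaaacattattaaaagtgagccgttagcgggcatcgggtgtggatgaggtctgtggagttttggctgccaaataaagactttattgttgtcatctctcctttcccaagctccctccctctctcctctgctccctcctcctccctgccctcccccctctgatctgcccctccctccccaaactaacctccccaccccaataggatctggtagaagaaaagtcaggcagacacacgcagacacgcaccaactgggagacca

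In the *Bgn* window, TGTTCT, the half-site on the other strand, starts at base 10 of the window. It also held 3 matches to the GC box, 2 of them overlapping each other by 2 bases. The *Prelp* window held none of the 4 motifs. The half-site was found in 19.0% of all 32851 promoter windows of this length and in 1 of the 7 member windows that could be matched (*Acan*, *Aspn*, *Bgn*, *Fmod*, *Ogn*, *Prelp* and *Vcan*). GC boxes were in 35.7% of all windows and in 3 of 7 (*Acan*, *Bgn* and *Vcan*), TATA boxes in 13.6% and in *Aspn* and *Ogn*, and AP-1 sites in 5.20% and in no member. The GC content was 63.7% for *Bgn* and 55.3% for *Prelp*, beside a median of 52.7% over all windows.

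In HS over untreated VEDS mice the largest fold changes were those of other members. *Aspn* was at 109, 121 and 139 CPM in HS, against a lowest, median and highest of 65.0, 85.1 and 111 CPM in untreated VEDS mice. Only the lowest HS library fell within the untreated range. On the log2 scale the fold change was 0.50 ± 0.15 (SE; 95% interval 0.15 to 0.84; adjusted p = 0.258 by edgeR). *Ogn* was at 1180, 1622 and 1654 CPM in HS, against 877, 1096 and 1426 CPM as the lowest, median and highest in untreated mice, a log2 fold change of 0.40 ± 0.16 (SE; adjusted p = 0.400). The HS library at 1180 CPM lay inside the untreated range and the others above it. Untreated *Ogn* was at 1426, 1181 and 1184 CPM in the lower and at 877, 1011 and 1001 CPM in the higher *Col3a1* set. With the set as a term the log2 fold change in HS was 0.22 ± 0.14 for *Ogn* (SE; adjusted p = 0.639). *Acan* was lower, at 40.4, 26.0 and 27.1 CPM in HS, against 37.4, 41.9 and 60.7 CPM, with a log2 fold change of −0.56 ± 0.19 (SE; 95% interval −0.99 to −0.13; adjusted p = 0.309). The first HS library overlapped the untreated group and the others lay below it. With the set as a term the log2 fold change was −0.38 ± 0.20 for *Acan* (SE; adjusted p = 0.556) and 0.64 ± 0.17 for *Aspn* (SE; adjusted p = 0.260). Without HS replicate 3, the library that stands apart, the log2 fold changes were 0.41 for *Aspn*, 0.33 for *Ogn* and −0.46 for *Acan*. Over hydralazine-treated VEDS mice, HS gave 0.29 ± 0.13 for *Aspn*, 0.41 ± 0.18 for *Ogn* and −0.30 ± 0.17 for *Acan* (SE). The edgeR adjusted p-values were 0.360, 0.366 and 0.452. Hydralazine alone over untreated VEDS mice gave 0.22, 0.02 and −0.24 in the same order. With the set as a term, HS over hydralazine gave 0.43 ± 0.13, 0.16 ± 0.12 and −0.19 ± 0.19 (SE; adjusted p = 0.539, 0.709 and 0.784).

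*Lum* had lower values with either antagonist than with hydralazine alone, and this went with the *Col3a1* level. It was at 136, 133 and 147 CPM in HB and 131, 145 and 106 CPM in HS, against a lowest, median and highest of 143, 169 and 201 CPM in hydralazine-treated VEDS mice. Over hydralazine the log2 fold change was −0.32 ± 0.13 (SE) for HB and −0.44 ± 0.15 (SE) for HS, with adjusted p-values of 0.263 and 0.332 by edgeR. In each antagonist group 1 library fell within the range of the hydralazine group. In the hydralazine group *Lum* was at 149, 143 and 152 CPM in the lower and at 200.2, 186 and 201 CPM in the higher *Col3a1* set. With the set as a term the log2 fold change of *Lum* was −0.10 ± 0.07 for HB and −0.22 ± 0.11 for HS (SE; adjusted p = 0.658 and 0.605). With 1 surrogate variable these values shrank to −0.05 for HB and −0.14 for HS. They were −0.29 for HB without replicate 2 and −0.32 for HS without replicate 3. *Dcn*, *Fmod* and *Vcan* overlapped between groups in all 5 antagonist comparisons, with log2 fold changes between −0.003 (*Dcn*) and 0.29 (*Fmod*). The values of *Vcan* also differed by *Col3a1* set. *Vcan* was at 305, 319 and 277 CPM in HB and at 291, 282 and 364 CPM in HS, against 226, 225 and 225 CPM in the lower and 287, 312 and 339 CPM in the higher set of untreated VEDS mice. HB and HS were thus clear of the lower set of untreated mice and overlapped the higher. In hydralazine-treated VEDS mice the lower set was at 242, 225 and 313 CPM, which overlapped both HB and HS. Over untreated mice the log2 fold change of *Vcan* was 0.15 in HB and 0.21 in HS without the term, and 0.41 ± 0.08 and 0.46 ± 0.11 with it (SE; adjusted p = 0.113 and 0.238). Over hydralazine-treated VEDS mice it was 0.003 in HB and 0.07 in HS without the term. With the term these were 0.20 ± 0.11 and 0.27 ± 0.14 (SE; edgeR adjusted p = 0.562 and 0.616).

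Counted over the comparison, 0 of 9 members were called in HB over untreated VEDS mice, where 0.409% of 13204 genes were called. In HS over untreated VEDS mice 0 of 9 were called, beside 0.309% of 13276 genes. In HB over hydralazine 0 of 9 were called, beside 0.0151% of 13266 genes, and in HS over hydralazine 0 of 9, beside 0% of 13304 genes (1805 at an unadjusted p under 0.05, and 52 called by DESeq2). HS over HB gave 0 of 9, beside 0% of 12800 genes (855 at an unadjusted p under 0.05, and 37 called by DESeq2). DESeq2 called 1 member, *Bgn*, in each HB comparison with a group of 6, and none in the others.

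By the range of CPM alone, 2 of 9 members (*Bgn* and *Prelp*) did not overlap in HB over untreated VEDS mice, where 8.67% of genes did not. The same 2 did not overlap in HB over hydralazine, beside 8.25% of genes, and in HS over HB, beside 13.6%. In HS, 0 of 9 were clear of the untreated group, beside 5.46% of genes, and 0 of 9 of the hydralazine group, beside 5.77%. The median log2 fold change of the 9 members was 0.12 in HB and 0.21 in HS over untreated VEDS mice, beside −0.01 and −0.01 for all genes tested.

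**Figure D3:**
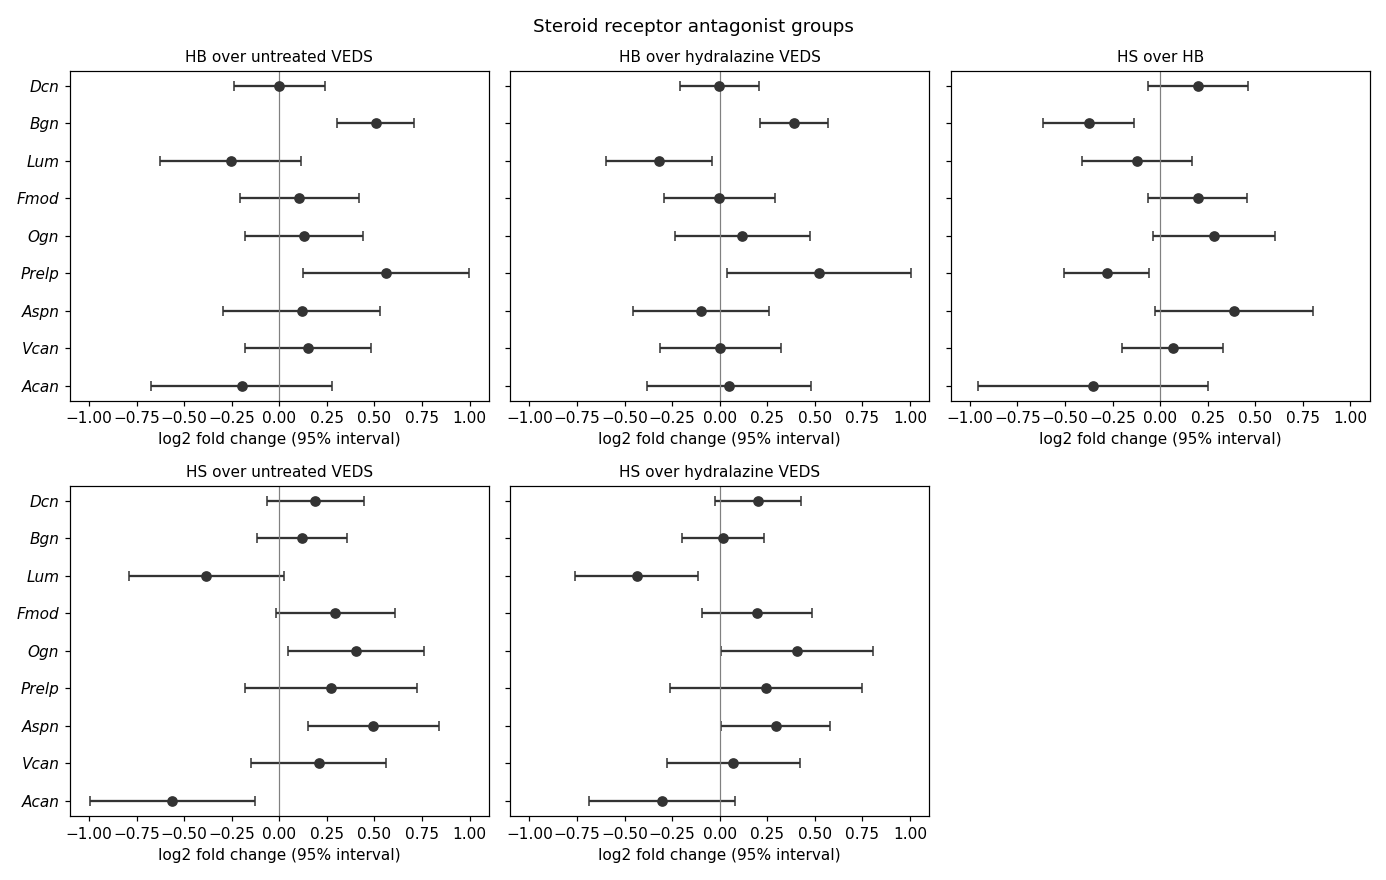
Log2 fold change (point) with 95% interval (bar) of the 9 genes in the 5 comparisons of the antagonist groups. In HB over untreated VEDS mice *Bgn* (0.51) and *Prelp* (0.56) lie clear of 0, and in HS over untreated *Ogn* (0.40), *Aspn* (0.50) and *Acan* (−0.56) do.

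The second question was whether the *Col3a1* mutation itself moved the proteoglycans. No member was called, and in untreated mice the differences were small. *Bgn* averaged 1266 ± 122 CPM in untreated VEDS mice and 1263 ± 166 CPM in untreated controls (SD, n = 6 each), a log2 fold change of 0.00 ± 0.10 (SE). *Dcn* averaged 1105 ± 121 and 1026 ± 31.1 CPM in the same groups, with a log2 fold change of 0.11 ± 0.08 (SE). For all 9 members the log2 fold change lay between −0.14 (*Ogn*) and 0.16 (*Lum*). The widest interval was that of *Prelp*, −0.49 to 0.55, or folds from 0.71 to 1.46, from a fit that pools both *Col3a1* sets. With the set as a term *Prelp* stood at 0.04 ± 0.15 (SE; edgeR adjusted p = 0.9994). Under hydralazine *Ogn* was lower in VEDS mice, at −0.17 ± 0.14 without the term and −0.18 ± 0.04 with it (SE; edgeR adjusted p = 0.946 and 0.362). With untreated and hydralazine-treated mice joined, *Ogn* was at −0.16 ± 0.11 and −0.15 ± 0.04 (SE; adjusted p = 0.9998 and 0.392).

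*Lum* came closest to a difference by genotype. The study lists *Lum* as upregulated in untreated VEDS over untreated control aorta at day 60. The groups of 6 compared here are not split by age, so that comparison was not repeated. Under hydralazine the lowest, median and highest of *Lum* were 143, 169 and 201 CPM in VEDS mice, against 91.6, 129 and 151 CPM in controls. The highest control library lay inside the VEDS range and the groups overlapped. That is a log2 fold change of 0.45 ± 0.13 (SE; fold 1.36, 95% interval 1.13 to 1.65; adjusted p = 0.922 by edgeR). With the *Col3a1* set as a term it was 0.44 ± 0.07 (SE; adjusted p = 0.0581). In untreated mice *Lum* had 129, 162 and 215 CPM as lowest, median and highest in VEDS, against 106, 130 and 235 CPM in controls, at 0.16 ± 0.21 (SE). Leaving out 1 library put this value between 0.07 without VEDS replicate 6 and 0.35 without control replicate 5. With untreated and hydralazine-treated mice joined, 168 ± 30.2 CPM in 12 VEDS mice stood against 136 ± 38.1 CPM in 12 controls (SD), a log2 fold change of 0.30 ± 0.13 (SE; adjusted p = 0.9998). With the *Col3a1* set as a term the joined value was 0.31 ± 0.07 (SE; edgeR adjusted p = 0.230). Within the lower set under hydralazine, *Lum* was at 143 to 152 CPM in VEDS mice and 91.6 to 127 CPM in controls. In the higher set these were 186 to 201 and 132 to 151 CPM. Untreated, the lower set was at 129 to 142.5 and 106 to 118 CPM. The untreated higher set overlapped, at 181 to 215 and 142 to 235 CPM. A direct test of whether the genotype difference in *Lum* changes with hydralazine gave an interaction of 0.28 ± 0.25 on the log2 scale (SE). With the *Col3a1* set as a term the interaction was 0.26 ± 0.14 (SE; edgeR adjusted p = 0.873). Leaving out 1 library put it between 0.09, without untreated control replicate 5, and 0.37. It was −0.01 with 1 surrogate variable, so its size depended on the fit and its sign did not hold in that one.

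Hydralazine alone was the third question. In controls *Bgn* had a lowest, median and highest of 1346, 1421 and 1684 CPM with hydralazine, against 1063, 1262 and 1539 CPM without. This gave a log2 fold change of 0.24 ± 0.10 (SE; 95% interval 0.03 to 0.45; adjusted p = 0.520 by edgeR), with overlap of the groups. In VEDS mice it was 0.13 ± 0.07 (SE), from 1369 ± 95.4 CPM with hydralazine and 1266 ± 122 CPM without (SD, n = 6 each). *Fmod* was 58.5 ± 13.5 CPM in hydralazine-treated controls and 47.3 ± 6.37 CPM in untreated controls, at 0.31 ± 0.15 on the log2 scale (SE; adjusted p = 0.528). In VEDS mice *Fmod* gave 0.12 ± 0.13 (SE). The interaction of genotype with hydralazine, which tests these differences between VEDS mice and controls, was −0.12 ± 0.13 for *Bgn* and −0.20 ± 0.21 for *Fmod* on the log2 scale (SE), with no call. For the other members the log2 fold change lay between −0.24 (*Acan*) and 0.22 (*Aspn*) in VEDS mice and between −0.21 (*Lum*) and 0.25 (*Prelp*) in controls.

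In each of the 6 comparisons of genotype and hydralazine, 0 of 9 members and 0% of genes were called by edgeR. At an unadjusted p under 0.05 there were 394 genes for genotype in untreated mice, 602 under hydralazine and 494 joined. The numbers were 589 for hydralazine in VEDS mice, 1230 in controls and 440 for the interaction. DESeq2 called 0, 4, 1, 2, 3 and 0 genes in these 6 comparisons in the same order, none of them a member. In the pairwise ones 0 of 9 members were free of overlap, beside 0.146% of genes for genotype in untreated mice, 0.201% under hydralazine, 0.192% for hydralazine in VEDS mice and 0.355% in controls.

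**Figure D4:**
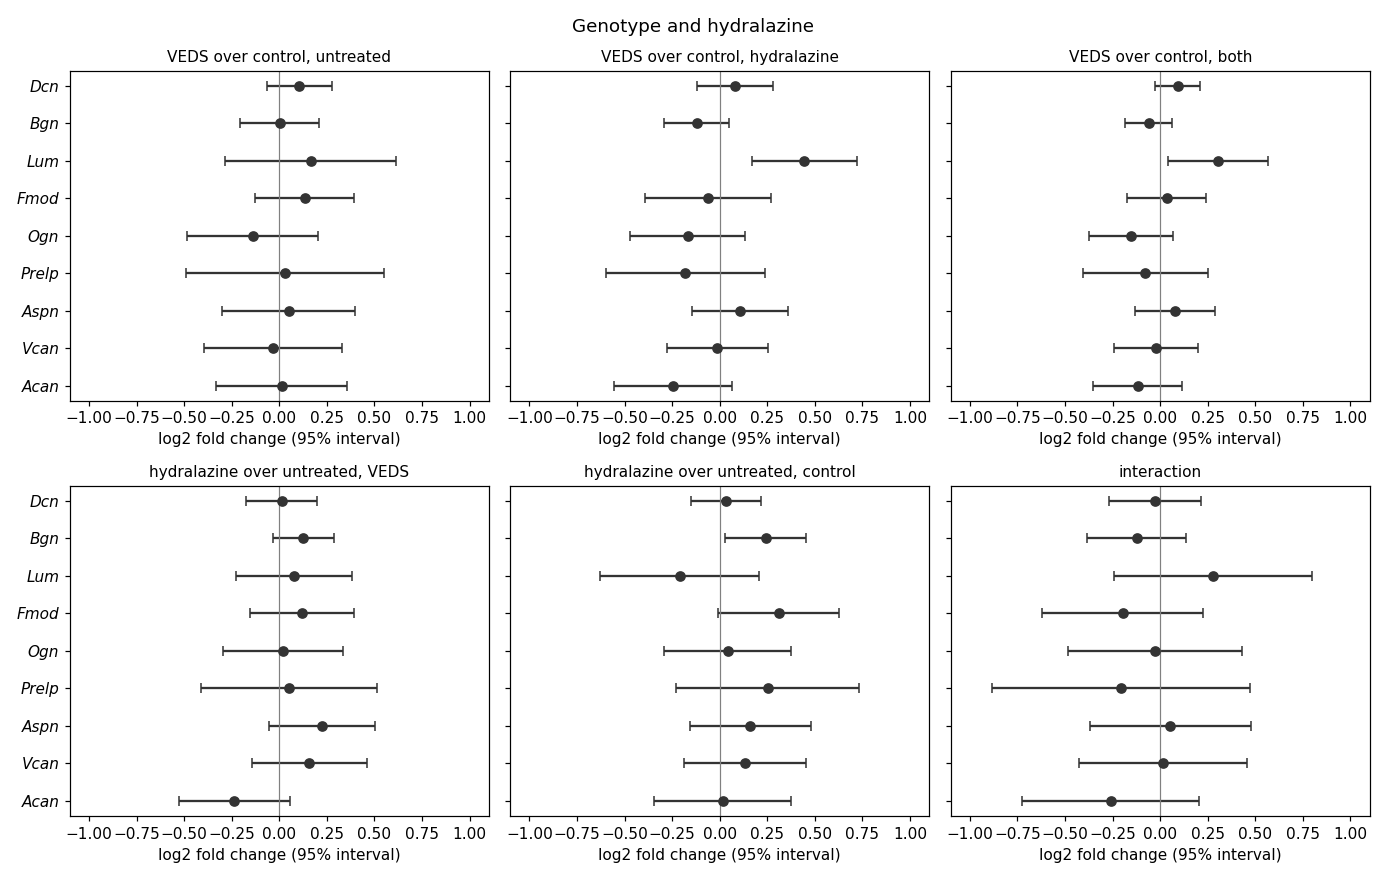
Log2 fold change (point) with 95% interval (bar) of the 9 genes for genotype, hydralazine and their interaction. Intervals clear of 0 are those of *Lum* for genotype under hydralazine (0.45) and joined (0.30), and of *Bgn* for hydralazine in controls (0.24), and none of these genes was called.

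The genes that build, cleave or bind these proteoglycans gave the same count. Their fold changes below have no term for the *Col3a1* set. Of 10 further leucine-rich repeat proteoglycans, *Ecm2*, *Optc* and *Omd* were the most abundant, with means of 276, 44.5 and 24.9 CPM. *Omd*, the keratan sulfate proteoglycan osteomodulin that lies between *Aspn* and *Ogn* on chromosome 13, had a log2 fold change of 0.66 ± 0.21 in HS over untreated VEDS mice (SE; adjusted p = 0.266). This stands beside 0.50 for *Aspn* and 0.40 for *Ogn*, its neighbours, in the same comparison. *Ecm2*, the next gene in that cluster, gave 0.26 ± 0.16 (SE). Among enzymes of chain synthesis, *Csgalnact2*, *Chsy1* and *Dsel* were the most abundant of 27, at 128, 121 and 91.2 CPM. In HB over untreated VEDS mice 16 of the 26 tested were higher and 10 lower, with a median of 0.06, and 0 were called. The medians of the other lists in this comparison were 0.12 for the leucine-rich repeat proteoglycans (4 of 5 tested were higher), −0.02 for the hyaluronan genes (5 of 11), −0.03 for the proteases (3 of 7), 0.32 for the keratan sulfate enzymes (3 of 5) and 0.05 for the surface and basement membrane proteoglycans (10 of 15). Of the keratan sulfate enzymes *B4galt1* led with 94.4 CPM, followed by *B3gnt2* and *Chst2* at 30.6 and 14.8 CPM, and again 0 of 5 tested were called.

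Hyaluronan is made, bound and degraded by a further set of genes, of which *Hyal1*, a hyaluronidase, *Cemip2*, a cell-surface hyaluronan-degrading protein, and the receptor *Cd44* were the most abundant, at 142, 121 and 57.0 CPM. *Cd44* gave 0.33 ± 0.09 in HB (SE; adjusted p = 0.126) and 0.26 ± 0.10 in HS (SE; adjusted p = 0.346), both over untreated VEDS mice. Among proteases of versican and aggrecan and their inhibitor, *Timp3*, *Adamts1* and *Adamts15* led at 999.9, 284 and 122 CPM. *Timp3*, which inhibits these proteases, gave 0.49 ± 0.18 in HB over untreated mice (SE; adjusted p = 0.225). *Adamts1* gave 0.43 ± 0.23 in HB and 0.79 ± 0.33 in HS over untreated mice (SE), with adjusted p-values of 0.389 and 0.418. Cell-surface and basement membrane proteoglycans were led by *Col18a1*, *Hspg2* and *Cspg4* at 1351, 1255 and 476 CPM. In HB over untreated VEDS mice *Col18a1* gave 0.44 ± 0.13 (SE; adjusted p = 0.131) and *Cspg4* 0.41 ± 0.11 (SE; adjusted p = 0.112). No gene of these 6 lists was called by edgeR in any of the 11 comparisons.

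Whether the proteoglycans vary together was examined in log2 CPM after the group mean was removed. As *Col3a1* put the libraries into 12 with a higher and 18 with a lower level, correlations were computed within each of these sets, over the 36 pairs of members. Residuals were permuted within groups (100000 resamples) and p-values adjusted over the 36 pairs. The higher set has only 3 libraries in each of its groups. Few distinct permutations exist there, which limits how small a p can be whatever the number of resamples. In the 12 libraries of higher *Col3a1*, 4 pairs passed on r. *Lum* and *Aspn* gave r = 0.93 and rho = 0.96 (permutation p = 0.0008 and 0.00084, adjusted 0.0155 and 0.0151), and r was 0.89 without the 2 libraries farthest from the median of *Lum*. *Aspn* and *Vcan* gave r = 0.92 and rho = 0.87 (permutation p = 0.00265 and 0.00584, adjusted 0.0238 and 0.0420), and r was 0.90 without 2. *Bgn* and *Prelp* gave r = 0.91 and rho = 0.89 (permutation p = 0.00222 and 0.00396, adjusted 0.0238 and 0.0356), and r was 0.79 without 2. *Dcn* and *Aspn* gave r = 0.74 and rho = 0.85 (permutation p = 0.00086 and 0.00073, adjusted 0.0155 and 0.0151), and r was 0.64 without 2.

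In the 18 libraries of lower *Col3a1* none of the 36 pairs passed. *Dcn* and *Aspn* were at r = 0.69 and rho = 0.59 (permutation p = 0.0146 and 0.0432, adjusted 0.263 and 0.464). *Bgn* and *Prelp* were at r = 0.40, *Lum* and *Aspn* at 0.21 and *Aspn* and *Vcan* at 0.17. Thus 1 of the 4 pairs kept a value of like size, while the difference between the sets was not tested. *Ogn* and *Prelp* were at 0.59 in the higher and 0.60 in the lower set and passed in neither.

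**Figure D5:**
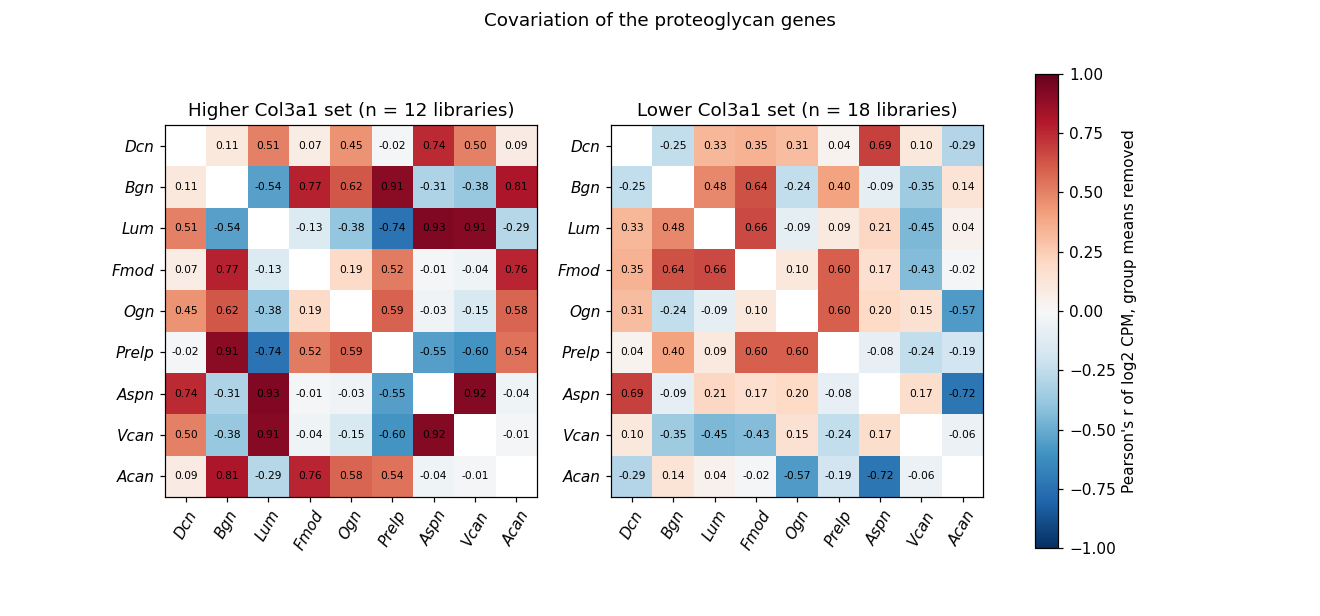
Pearson's r of log2 CPM (group means removed) for each pair of the 9 genes, in the 12 libraries of higher (left) and the 18 libraries of lower *Col3a1* level (right). *Lum*, *Aspn* and *Vcan* are at 0.91 to 0.93 in the left panel and at −0.45 to 0.21 in the right.

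Among 13525 other genes, those most like each member over the 30 libraries were named by r after removing group means, as a description of libraries that share the split in *Col3a1*, with r in the higher and lower set given for the first of each. For *Bgn* they included *Timp2*, an inhibitor of matrix metalloproteinases, and *Npnt*, a matrix ligand of integrins. *Timp2* was at 0.97 in the higher and 0.66 in the lower set. For *Prelp* they were *Ccdc3* (0.90 and 0.69), *Kank2* and *Kif1c*. For *Ogn* they were *Pgm5* (0.91 and 0.73), *Mbnl1* and *Cped1*. *Lum* was most like *Dpt* (0.82 and 0.80), which encodes the matrix protein dermatopontin and is also on the fibroblast marker list, then *Flrt2* and *Cdh11*. *Aspn* was most like *C1qtnf3* (0.80 and 0.87), *Cd34* and *Fam102b*, and *Dcn* like *Lrrn4cl* (0.68 and 0.82), *P2rx7* and *Pfkfb2*. *Fmod* was most like *Stab1* (0.74 and 0.80), *Timp2* and *Tgfbi*. *Vcan* was most like *Atad2* (0.82 and 0.59), *Pappa* and *Ubtd2*, and *Acan* like *Eif4g2* (0.77 and 0.85), *Cacna1a* and *2310061I04Rik*.

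Several members lie side by side in the genome by the RefSeq gene order. *Dcn* and *Lum* are neighbours on chromosome 10, followed by *Kera* and *Epyc*. *Prelp* and *Fmod* are neighbours on chromosome 1, next to *Optc*. *Aspn* and *Ogn* flank *Omd* on chromosome 13. As for covariation of such neighbours, *Dcn* and *Lum* were at r = 0.51 and 0.33 in the higher and lower set *Prelp* and *Fmod* at 0.52 and 0.60, and *Aspn* and *Ogn* at −0.03 and 0.20. None of these passed on r in either set. On rho, *Dcn* and *Lum* passed in the higher set (rho = 0.81, permutation p = 0.00357, adjusted 0.0356). In the lower set they did not (rho = 0.43, permutation p adjusted 0.657). *Vcan* on chromosome 13 and *Acan* on chromosome 7 each lie next to a gene of a hyaluronan link protein, *Hapln1* and *Hapln3*.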

How the data were processed

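Descending thoracic aortas gave 30 stranded total RNA libraries in 6 groups taken from the labels. Per the submitters' processing notes, CASAVA 1.8.4 and RSEM were used with mm39. The deposited expected counts (97.6% whole within 1e-06) were rounded for tests, the deposited TPM values of the authors were used as they are, and TPM confidence columns were not used. The deposited effective length, another value per gene, scaled CPM per kilobase. The files list 26253 genes, 19485 with a count. The labels give all libraries the same batch and no age, extraction batch or pairing per library.

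Each of 11 comparisons was fitted on its own libraries with edgeR 4.0.16 (TMM, filterByExpr, quasi-likelihood F-test) in R 4.3.3, with Benjamini-Hochberg adjustment over all genes and calls at 0.05 or less. SE is the fold change over the square root of F. CPM values use TMM factors over 30 libraries, and log2 CPM a prior count of 2. Alternatives were other size factors, DESeq2 1.42.0, other filters, 1 fit of all libraries, 1 surrogate variable (sva 3.50.0) and left-out libraries. Correlations within 2 sets of libraries, split at the widest gap in *Col3a1*, and fits with that set as a term were added after seeing the data. The fits were tested on simulated data. The study's own tool, EBSeq, was not used here.

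The members and lists were chosen with earlier results of these data known. All members were named, with the 3 genes most like each by r, of which 1 is not reported here. From a list, up to 6 called genes or, where none was called, the 3 most abundant were named. As the labels do not describe litters or cultures, p-values measure the spread between these mice. In the groups of 6 that spread includes the difference between the *Col3a1* sets, for which the main fits have no term. Intervals cover the spread between libraries, whose number limits the precision.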

Additional observations from a re-analysis of the deposited data

Results flagged for a closer look

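Among the 36 sets of 6 libraries examined (9 genes in 4 groups), 1 had a library far from the others, where chance alone flags about 1 in 20. *Acan* was at 27.1 CPM in hydralazine-treated VEDS replicate 1, while the other 5 libraries of that group lay between 39.3 and 41.9 CPM.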

How the results depend on the processing

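The count of members called was 0 in each of the 11 comparisons and stayed at 0 under all alternatives except those for *Bgn* in HB. For HB over untreated VEDS mice 1 member was called by DESeq2, 1 in 1 fit of all libraries and 1 with 1 surrogate variable, and leaving out 1 library gave 0 to 1. For HB over hydralazine 1 was called by DESeq2. Over all genes the calls in HB over untreated VEDS mice were 54, but 559 by DESeq2, 173 with 1 surrogate variable, 2 without the libraries that stand apart, and 2 to 529 when 1 library was left out. In HS over untreated they were 41, but 288, 57, 1 and 0 to 104 in the same order, and 141 in 1 fit of all libraries. In HB over hydralazine they were 2, but 573, 69, 1 and 1 to 56. DESeq2 called 52 genes in HS over hydralazine and 37 in HS over HB, and 1 surrogate variable 6 and 11. With the *Col3a1* set as a term, added after the data had been seen, the calls were 12 in HB and 0 in HS over untreated VEDS mice, 132 in HB over hydralazine and 4 for genotype under hydralazine.

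Leaving out 1 library changed the sign in 118 of 1242 fold changes of members, none with a main value beyond 0.20 on the log2 scale, and the other alternatives in 48 of 765. The farthest of these was *Ogn* in HS over hydralazine, which was 0.41 and became −0.01 with 1 surrogate variable, where the cause was not tested. The order per length was the same for 9 of 9 genes as CPM per kilobase. Over all 30 libraries 12 of 36 pairs passed on r, a count that mixes both *Col3a1* sets, against 4 in the higher and 0 in the lower set. No paired analysis was possible because the labels tie no library to its extraction batch, and the replicate numbers used here are in accession order.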

Other observations

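In untreated VEDS replicates 1 to 6, *Prelp* was at 261, 239, 198, 137, 148 and 157 CPM and *Col3a1* at 5335, 5444, 4711, 13568, 17691 and 16122 CPM. In hydralazine-treated VEDS replicates 1 to 6, *Prelp* was at 244, 260, 124, 161, 146 and 237 CPM and *Col3a1* at 7501, 5450, 14647, 15262, 14688 and 5764 CPM. In both groups the 3 libraries with *Col3a1* at 13568 CPM or more were those with the lowest *Prelp*. HB and HS libraries had *Col3a1* between 5549 and 7381 CPM and *Prelp* between 207 and 291 CPM. The study lists *Col3a1* among transcripts downregulated from postnatal day 30 to day 60. The labels do not say which of these libraries were harvested at day 30 or day 60, so age could not be set beside these values. Whether the *Col3a1* sets follow age was not tested.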
